A study of Homo sapiens with 12 samples.

Results

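The genes described here were AKR1C1, AKR1C2 and AKR1C3, which encode aldo-keto reductases, the cytochrome P450 gene CYP3A5, the chloride channel gene CFTR, the Na,K-ATPase subunit gene FXYD2 and the Kelch-like gene KLHL4. They are 7 of the 62656 genes of a count table made from 12 RNA libraries of a human podocyte cell line. They were selected on measured levels: several of them were much lower in YAP5SA than in GFP cells when both had doxycycline. That contrast is therefore only described for them. The tests bear on what it was built from, namely the difference between the lines before induction and the change with induction. The induction tests share the induced libraries with that contrast. Their p-values, wherever printed below, are therefore not independent of the choice.

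The line is conditionally immortalized with a temperature-sensitive SV40 large-T antigen, divides at 33 °C and had been kept at 37 °C for 12 days to differentiate. Stable pCW constructs, which switch on with doxycycline, carried eGFP in the control line and FLAG-NLS-YAP5SA in the other. YAP5SA is a version of YAP, a co-activator of transcription, that the Hippo kinases cannot switch off. A FLAG epitope and a nuclear localization signal (NLS) were attached to it. The 4 groups, with 3 libraries each, were GFP without doxycycline, GFP with 0.1 µg/ml doxycycline for 24 hours, YAP5SA without doxycycline (uninduced) and YAP5SA with 0.1 µg/ml for 24 hours (induced). All 4 share the large-T antigen, the pCW backbone and the differentiation at 37 °C. The labels do not say whether a line is 1 clone, or whether the replicates, numbered 1 to 3, are separate cultures. The spread behind every p-value is therefore that of these samples alone and may be technical, and differences between the lines without doxycycline cannot be told apart from differences between clones or transduced pools.

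AKR1C enzymes use NADPH to reduce carbonyl groups of steroids and prostaglandins, and their genes are known targets of the oxidative stress factor NRF2. AKR1C1 inactivates progesterone, AKR1C2 inactivates dihydrotestosterone, and AKR1C3 makes testosterone and prostaglandin F products. CYP3A5 oxidizes many drugs and steroids and is the CYP3A enzyme known for its expression in kidney. CFTR, the cystic fibrosis channel, belongs to the ABC transporter family and conducts chloride across the apical membrane of epithelia. FXYD2 is the gamma subunit that tunes the Na,K-ATPase of kidney tubules. KLHL4 encodes a BTB and Kelch-repeat protein on the X chromosome. In the kidney, CYP3A5, CFTR and FXYD2 are known mostly from tubule epithelium rather than from podocytes, the filter cells of the glomerulus.

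The 3 AKR1C genes lie side by side on chromosome 10 (GRCh38, GENCODE 29). AKR1C1 (ENSG00000187134) spans chr10:4963253-4983283 on the plus strand, AKR1C2 (ENSG00000151632) chr10:4987400-5018031 on the minus strand, and AKR1C3 (ENSG00000196139) chr10:5035354-5107686 on the plus strand. The first 120 coding bases of each, from exon sequence of GENCODE 29 transcripts, show how alike they are and so how hard their reads are to tell apart. Capitals mark the 16 positions at which the 3 sequences are not all the same.
AKR1C1: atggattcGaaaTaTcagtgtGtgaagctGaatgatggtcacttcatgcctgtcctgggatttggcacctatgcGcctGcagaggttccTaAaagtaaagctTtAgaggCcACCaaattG
AKR1C2: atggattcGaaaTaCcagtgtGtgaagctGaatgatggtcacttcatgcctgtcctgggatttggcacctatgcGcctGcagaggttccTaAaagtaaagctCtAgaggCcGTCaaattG
AKR1C3: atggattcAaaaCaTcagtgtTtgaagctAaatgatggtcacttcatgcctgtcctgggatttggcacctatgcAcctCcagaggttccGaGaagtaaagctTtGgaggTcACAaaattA
Over the whole coding sequence, 91 positions were not shared by all 3. AKR1C1 and AKR1C2 were identical at 950 of 969 aligned coding positions (98%), AKR1C1 and AKR1C3 at 91.9%, and AKR1C2 and AKR1C3 at 91.2%. Of all 50-base windows of their exons, 28.6% in AKR1C1, 38.9% in AKR1C2 and 4.53% in AKR1C3 occurred unchanged in another gene of the family. A read from such a window has no single source, so the values of AKR1C1 and AKR1C2 are uncertain, those of AKR1C3 less so, and the sum of the 3 rows is given beside them. The row of AKR1C4 held no count in any of the 12 libraries.

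Their promoters are alike as well. In the 250 bases before the start site (RefSeq, GRCh38.p14), AKR1C1 and AKR1C2 were identical at 245 of 246 aligned positions (99.6%). The RefSeq table listed 2 start sites for AKR1C3 and matched 6 of the 7 genes, FXYD2 being the other. One AKR1C3 window, chr10:5048531-5048780 on the plus strand, is printed because it lies in an intron of the longer GENCODE 29 transcripts, outside annotated exons, and holds, in capitals, the longest run of letters common to the AKR1C1 window, the AKR1C2 window and both AKR1C3 windows.
AKR1C3 promoter: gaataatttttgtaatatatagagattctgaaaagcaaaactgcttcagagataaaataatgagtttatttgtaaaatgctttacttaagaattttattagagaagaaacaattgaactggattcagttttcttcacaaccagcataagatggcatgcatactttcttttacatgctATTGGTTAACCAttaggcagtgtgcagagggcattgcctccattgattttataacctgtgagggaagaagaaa
That 12-base run was found, on either strand, in 5 of 35116 promoter windows of the same length (0.0142%). Of those 5, 4 are the AKR1C windows from which the run was taken, so they hold it by construction. Cores of the antioxidant response element (TGACNNNGC, held by 10.9% of all windows), of TEAD sites (GGAATG, 11.9%) and of AP-1 sites (TGANTCA, 6.57%) were searched on both strands and were not among the letters of the 7 windows, and another motif searched is not reported here. These are matches of letters in a short window and say nothing of binding.

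Each library held 24477592 to 25993413 counts, and 17470 genes passed the filter on low counts. The row of YAP1, which can count endogenous and transgene RNA together, averaged 275.5 CPM (reads corrected for library size) in GFP without doxycycline, 271.9 with it and 313.8 in uninduced YAP5SA. The induced libraries held 1757, 1672 and 970 CPM, replicate 3 being the lowest. Against the podocyte label, NPHS1 and WT1 had 18 and 71 reads in all 12 libraries together, whereas SYNPO and PODXL were present. The summed level of 13 proximal tubule markers, most of it HAVCR1, an injury marker, was 73.6 to 125 CPM in GFP without doxycycline, 72.4 to 127 with it, 52.8 to 68.1 in uninduced and 39.1 to 53.7 in induced YAP5SA. HAVCR1 alone was at 93.6, 93.9, 52.7 and 38.7 CPM in the same order. None of the 6 proximal tubule markers that could be tested was called at baseline or with induction by edgeR, and their median was 0.18 at baseline, with PDZK1, AQP1, SLC5A2 and GATM above 0, and LRP2 had 24 reads in all and SLC22A6 none. The 15 markers of loop of Henle, distal tubule and collecting duct summed to 13.6 to 16.5, 13.6 to 14.4, 11.8 to 13.3 and 9.49 to 11.8 CPM, with UMOD, CALB1 and AQP2 at 0. Sums of 13 parietal epithelial markers (4209 to 4435 CPM uninduced, 3767 to 3829 induced) and of 8 endothelial markers (33.2 to 38.2 and 28.3 to 31.7 CPM) were also lower in induced cells. So was that of 8 leukocyte markers (2.38 to 4.26 and 1.38 to 2.37 CPM). Sums of 20 podocyte markers (3718 to 3920 and 3784 to 4004 CPM) and of 8 mesangial and fibroblast markers (1349 to 2748 and 1295 to 2602 CPM) overlapped between these groups. Single markers went both ways. With induction, edgeR called 2 of the 13 parietal markers higher and 3 lower. EHD3 gave most of the endothelial sum (34.1 CPM uninduced, 28.1 induced). Of the 3 endothelial markers that could be tested, 2 were called higher and 0 lower (median 0.84). The part of these markers in the results was not tested. In bulk RNA, fewer cells that express a gene and less RNA per cell cannot be told apart.

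All 7 genes were weakly expressed. Of the 6 that passed the filter, average abundance placed AKR1C1 at the 7.0 percentile of tested genes, AKR1C3 at 21.8, FXYD2 at 22.8, CYP3A5 at 26.9, CFTR at 29.2 and KLHL4 at 31.2. AKR1C2 did not pass it. Levels were scaled to the merged length of all annotated exons of a gene, from 4532 bases for AKR1C3 to 9343 for CFTR. A single transcript can be much shorter, so the order between genes may depend on this length. For AKR1C1 the merged exons hold 8765 bases and the coding sequence 969. So scaled, the order of levels in GFP cells without doxycycline was KLHL4 (0.845 ± 0.165 CPM per kb, SD, n = 3), CYP3A5 (0.559 ± 0.0825), AKR1C3 (0.50 ± 0.0342), FXYD2 (0.487 ± 0.153), CFTR (0.474 ± 0.146), AKR1C1 (0.0676 ± 0.00462) and AKR1C2 (0.0102 ± 0.00353). The 4 genes from CYP3A5 to CFTR in that order differed by less than their spread. In induced YAP5SA cells KLHL4 (0.145 ± 0.148), CYP3A5 (0.0876 ± 0.0354), CFTR (0.0845 ± 0.0211), FXYD2 (0.0682 ± 0.0407), AKR1C3 (0.0523 ± 0.0380), AKR1C1 (0.0285 ± 0.0222) and AKR1C2 (0.0143 ± 0.00933 CPM per kb) lay closer together, and each differed from its neighbour in that order by less than the larger of their SDs. AKR1C3, the third in GFP cells, was the fifth there.

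**Figure D1:**
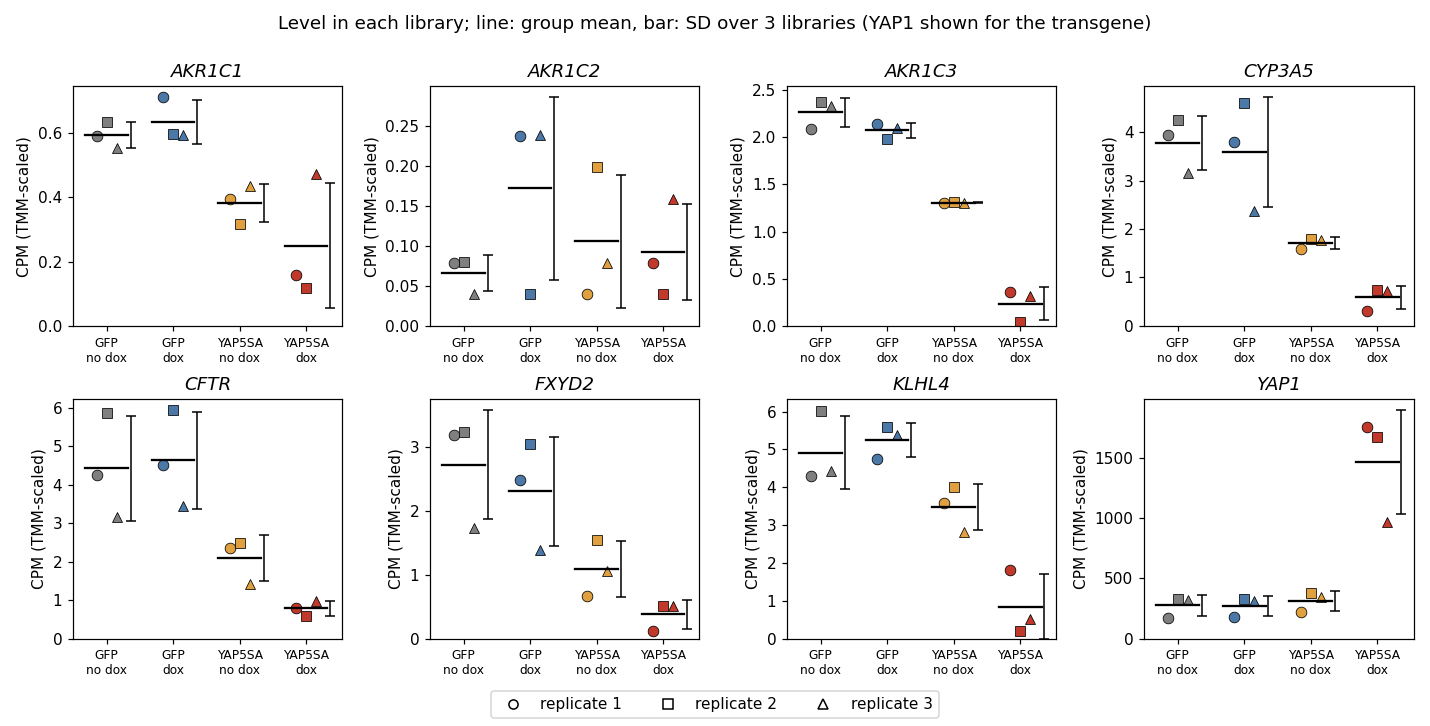
Level of each gene in CPM in every library, by group (points are libraries, lines the group mean with its SD, n = 3; an SD that would pass below 0 is cut there). In CYP3A5, CFTR and AKR1C3 the uninduced YAP5SA libraries sit between both GFP groups and the induced libraries, whereas induced KLHL4 ranges from 0.197 to 1.82 CPM.

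AKR1C3 was called both between the uninduced lines and with induction. Its libraries held 2.09, 2.38 and 2.33 CPM in GFP without doxycycline and 2.14, 1.99 and 2.10 CPM in GFP with it. The uninduced YAP5SA libraries held 1.30, 1.31 and 1.31 CPM, and the induced ones 0.356, 0.0395 and 0.316 CPM, the second of these being a single read. Each YAP5SA group lay wholly below both GFP groups, and the induced libraries lay wholly below the uninduced. Without doxycycline AKR1C3 was lower in the YAP5SA line, at 1.31 ± 0.00368 against 2.27 ± 0.155 CPM (SD, n = 3), which is a log2 difference of -0.79 ± 0.22 (SE, edgeR adjusted p = 0.0442). With induction it fell by 2.44 ± 0.33 on the log2 scale from that lower level (edgeR adjusted p = 0.000273). The baseline call was close to the threshold and was lost when any of 9 of the 12 libraries was left out, with log2 values from -0.85 to -0.75, whereas the induction call was kept in all 12 such fits. The induced libraries helped to pick the gene, so the kept induction call is no independent support.

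AKR1C1 had far fewer reads than AKR1C3 before induction. Its libraries had 15, 16 and 14 reads in GFP without doxycycline, 18, 15 and 15 with it, 10, 8 and 11 in uninduced and 4, 3 and 12 in induced YAP5SA. In CPM the group means were 0.593 ± 0.0405, 0.634 ± 0.0676, 0.382 ± 0.0596 and 0.250 ± 0.195 (SD, n = 3). The uninduced libraries lay below all GFP libraries, but the third induced library was above all uninduced ones, so those 2 groups overlap. Neither step passed the test. The baseline log2 fold change was -0.63 ± 0.35 (95% interval -1.37 to 0.12, edgeR adjusted p = 0.304) and that of induction -0.60 ± 0.41 (edgeR adjusted p = 0.353). Single libraries decided the induction value, which was -1.43 without induced replicate 3 (edgeR adjusted p = 0.0453), -0.36 without replicate 1 (edgeR adjusted p = 0.673) and -0.27 without replicate 2 (edgeR adjusted p = 0.741).

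AKR1C2 had too few reads for the filter. It had 5 reads in all in GFP without doxycycline, 13 in GFP with it, 8 in uninduced and 7 in induced YAP5SA, and its libraries ranged from 1 to 6 reads in a mixed order. In a fit with no filter its log2 values were 0.64 ± 0.82 at baseline (edgeR adjusted p = 0.795), the opposite sign to the other 6 genes, -0.18 ± 0.76 with induction (edgeR adjusted p = 1) and 1.32 ± 0.74 with doxycycline in GFP (edgeR adjusted p = 1). No change was detectable at this depth.

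The summed AKR1C reads do not depend on how counted reads were split among the 3 genes. Reads with no single source may have been dropped in counting, and the sum would not hold them. It was 2.76, 3.09 and 2.92 CPM in GFP without doxycycline and 3.09, 2.62 and 2.93 CPM with it. Uninduced YAP5SA libraries held 1.74, 1.83 and 1.82 CPM, and induced ones 0.593, 0.197 and 0.947 CPM. The groups separated in the same way as for AKR1C3, which gave most of these reads except in the induced group. There AKR1C3 held 18 and AKR1C1 19 of the 44 summed reads. The sum was -0.70 ± 0.24 on the log2 scale at baseline (edgeR adjusted p = 0.0845) and fell by 1.62 ± 0.30 with induction (edgeR adjusted p = 0.00234). The baseline value passed the threshold in several other fits, among them the one with the replicate number as a block (-0.70, edgeR adjusted p = 0.0313).

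CYP3A5 (ENSG00000106258, chr7:99648194-99680026, minus strand) gave the smallest baseline p of the 7 genes. Its libraries held 3.94, 4.24 and 3.16 CPM in GFP without doxycycline and 3.80, 4.61 and 2.38 CPM in GFP with it. Uninduced YAP5SA libraries held 1.58, 1.79 and 1.78 CPM, and induced ones 0.316, 0.75 and 0.710 CPM. The lines did not overlap, nor did the uninduced and induced groups, and replicate 3 was the lowest in both GFP groups. Without doxycycline CYP3A5 was 1.72 ± 0.118 CPM in the YAP5SA and 3.78 ± 0.558 CPM in the GFP line (SD, n = 3), a log2 fold change of -1.14 ± 0.25 (95% interval -1.67 to -0.61, edgeR adjusted p = 0.0128). Induction lowered it by a further -1.53 ± 0.33 (edgeR adjusted p = 0.00551). The baseline call was lost without GFP no-doxycycline replicate 1 (-1.11, edgeR adjusted p = 0.0506), GFP no-doxycycline replicate 2 (-1.05, edgeR adjusted p = 0.0597) or uninduced YAP5SA replicate 1 (-1.08, edgeR adjusted p = 0.0678). Its closest relatives had few reads: CYP3A4 had 19 reads, CYP3A7 3 and CYP3A43 2 in the 12 libraries together. CYP3A5 shares 89.5% of aligned coding bases with CYP3A4, but only 1.04% of its 50-base exon windows recur in the family.

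CFTR (ENSG00000001626, chr7:117465784-117715971, plus strand) held 4.26, 5.87 and 3.16 CPM in GFP without doxycycline and 4.51, 5.96 and 3.45 CPM with it. Uninduced YAP5SA libraries held 2.37, 2.5 and 1.42 CPM, and induced ones 0.791, 0.592 and 0.986 CPM. The groups of the YAP5SA line did not overlap with each other or with the GFP line, although replicate 3 was the lowest in both GFP groups and in the uninduced one. Without doxycycline CFTR was lower in the YAP5SA line, at 2.10 ± 0.588 against 4.43 ± 1.36 CPM (SD, n = 3), by a log2 fold change of -1.08 ± 0.28 (95% interval -1.68 to -0.47, edgeR adjusted p = 0.032). Induction lowered it by -1.40 ± 0.36 (edgeR adjusted p = 0.0154). The baseline call was lost without GFP no-doxycycline replicate 1 or 2 or any 1 of the uninduced YAP5SA libraries (-1.22 to -0.82), and the induction call without uninduced replicate 1 or 2 or induced replicate 1 or 2 (-1.40 to -1.23). CFTR exons overlap those of CTTNBP2 by 51 bases on the opposite strand and of CFTR-AS1, which had no count, by 8 bases.

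FXYD2 (ENSG00000137731, chr11:117800844-117828698, minus strand) held 3.19, 3.25 and 1.74 CPM in GFP without doxycycline and 2.49, 3.06 and 1.39 CPM with it. Uninduced YAP5SA libraries held 0.671, 1.55 and 1.07 CPM, and induced ones 0.119, 0.513 and 0.513 CPM. The uninduced libraries lay below those of GFP without doxycycline, and the induced below the uninduced, but replicate 3 of GFP with doxycycline was under uninduced replicate 2. The baseline difference had the largest fitted size and the widest error of the 6 tested genes: 1.10 ± 0.439 against 2.73 ± 0.857 CPM (SD, n = 3), a log2 fold change of -1.31 ± 0.39 (95% interval -2.17 to -0.46), which missed the threshold (edgeR adjusted p = 0.061). The change with induction was -1.51 ± 0.55 (95% interval -2.70 to -0.32, edgeR adjusted p = 0.077). With the replicate number as a block both passed, at -1.31 (edgeR adjusted p = 0.00806) and -1.51 (edgeR adjusted p = 0.019). The readthrough gene FXYD6-FXYD2 shares 7.01% of the exon bases of FXYD2 and had no count, and the antisense gene AP000757.2, which shares 7.74%, had 14 reads in all.

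KLHL4 (ENSG00000102271, chrX:87517749-87670050, plus strand) was called with induction but not between the uninduced lines. Its libraries held 4.30, 6.02 and 4.43 CPM in GFP without doxycycline and 4.75, 5.60 and 5.39 CPM with it. Uninduced YAP5SA libraries held 3.59, 4.01 and 2.81 CPM, close under the GFP range, and induced ones 1.82, 0.197 and 0.513 CPM. The GFP groups overlapped each other but neither YAP5SA group, and the uninduced and induced libraries did not overlap, but the induced ones spread widely, with 46, 5 and 13 reads. At baseline KLHL4 was 3.47 ± 0.610 against 4.92 ± 0.963 CPM (SD, n = 3), a log2 fold change of -0.50 ± 0.36 (95% interval -1.29 to 0.28) that did not pass the test (edgeR adjusted p = 0.442). With induction it fell by 2.04 ± 0.46 on the log2 scale (edgeR adjusted p = 0.00987). Leaving out induced replicate 1 gave -3.26 and leaving out induced replicate 2 gave -1.57, and the call was kept in all 12 fits that left out 1 library. These fits too rest on induced libraries that helped to pick the gene.

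Without doxycycline, 3 of the 6 tested genes were lower in the YAP5SA line (AKR1C3, CYP3A5 and CFTR), where 2.61% of all tested genes were called lower and 6.04% higher. This comparison shares no library with the contrast that picked the genes, but same-numbered GFP libraries with and without doxycycline deviate together, so its GFP group is not wholly independent of that choice. YAP1 itself was 0.19 ± 0.36 on the log2 scale there (edgeR adjusted p = 0.812), in a fit that does not pair the replicate numbers. In the order of those numbers, YAP1 was at 173, 333 and 321 CPM in GFP and 221, 375 and 345 CPM in uninduced YAP5SA. At each number the YAP5SA library was the higher, but the groups overlapped and are not treated as paired. No call does not by itself mean equal YAP1, and a difference before induction was not shown. All 6 fitted values were negative, with a median of -0.93 against -0.00 for all tested genes, and in all 6 the groups did not overlap, as in 13.1% of tested genes. The count of 3 depended on single libraries. It was 0 without GFP no-doxycycline replicate 1 or 2 or without uninduced YAP5SA replicate 1, and 1 without uninduced replicate 2 or 3, and over all 12 such fits it ran from 0 to 4. The count of all genes called also dropped there, from 1512 to between 607 and 718 without any of the first 3 libraries.

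Doxycycline in the YAP5SA line lowered 4 of the 6 (AKR1C3, CYP3A5, CFTR and KLHL4), where 9.28% of all tested genes were called lower and 9.83% higher. The median of the 6 was -1.52, and groups did not overlap in 5 of 6, AKR1C1 being the exception, as in 16.8% of tested genes. These values share the 3 induced libraries with the contrast that picked the genes and so are not independent of the choice.

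Doxycycline in the GFP line gave no call among the 6. The log2 fold changes were 0.10 ± 0.31 for AKR1C1, -0.13 ± 0.21 for AKR1C3, -0.07 ± 0.22 for CYP3A5, 0.07 ± 0.25 for CFTR, -0.24 ± 0.35 for FXYD2 and 0.09 ± 0.34 for KLHL4, each with an edgeR adjusted p of 1 and overlapping groups, where 2.87% of tested genes had doxycycline libraries wholly below the others. Of all genes, edgeR called 0 (0%), with 282 at an unadjusted p below 0.05, DESeq2 called 1 and limma-voom 0. The GFP groups are paired by replicate number. With only the 6 GFP libraries and the number as a block, edgeR called 20 genes, none of the 7, with -0.24 ± 0.15 for FXYD2 and -0.08 ± 0.13 for CYP3A5. The GFP libraries with doxycycline are also part of the contrast that picked the genes.

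The difference between the doxycycline effects of the lines, tested as an interaction, passed for AKR1C3 (-2.31 ± 0.40, edgeR adjusted p = 0.00464) and CYP3A5 (-1.45 ± 0.40, edgeR adjusted p = 0.0457), where 3.28% of all genes were called lower. It was -2.13 ± 0.57 for KLHL4 (edgeR adjusted p = 0.0508), -1.47 ± 0.44 for CFTR (edgeR adjusted p = 0.0671), -1.27 ± 0.65 for FXYD2 (edgeR adjusted p = 0.303) and -0.70 ± 0.52 for AKR1C1 (edgeR adjusted p = 0.501). The CYP3A5 call was lost in 11 of the 12 fits that left out 1 library (-1.67 to -1.15), the AKR1C3 call in none. KLHL4 passed without induced replicate 1 (-3.36, edgeR adjusted p = 0.00101). CFTR passed without GFP no-doxycycline replicate 2 (-1.72, edgeR adjusted p = 0.03), GFP doxycycline replicate 3 (-1.64, edgeR adjusted p = 0.0418) or uninduced replicate 3 (-1.68, edgeR adjusted p = 0.0424). Both groups with doxycycline were used to pick the genes, so the interaction is not independent of that choice.

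The contrast that picked the genes can be split into its parts as a description. With doxycycline, log2 fold changes of YAP5SA against GFP were -3.10 for AKR1C3, -2.63 for KLHL4, -2.59 for CYP3A5, -2.58 for FXYD2, -2.55 for CFTR and -1.33 for AKR1C1. From the lowest value up they ranked 5, 11, 13, 14, 16 and 333 of 17470 genes, so AKR1C1 lies far outside the range of the others. All 6 were called lower there, where 18.4% of all genes were, and none overlapped between the lines, as in 24.3% of tested genes, which follows from how they were picked. The part of this log2 difference in the fitted baseline value was 50.8% for FXYD2, 47.2% for AKR1C1, 44.0% for CYP3A5, 42.3% for CFTR, 30.5% for the AKR1C sum, 25.6% for AKR1C3 and 19.1% for KLHL4, next to 7.72% for YAP1, which rose. The rest is the interaction, which for FXYD2 was -1.27 ± 0.65 and for KLHL4 -2.13 ± 0.57. Differences between the genes in the baseline share were not tested, and the shares carry no error. The baseline value itself was not called for FXYD2, AKR1C1, KLHL4, the AKR1C sum or YAP1.

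**Figure D2:**
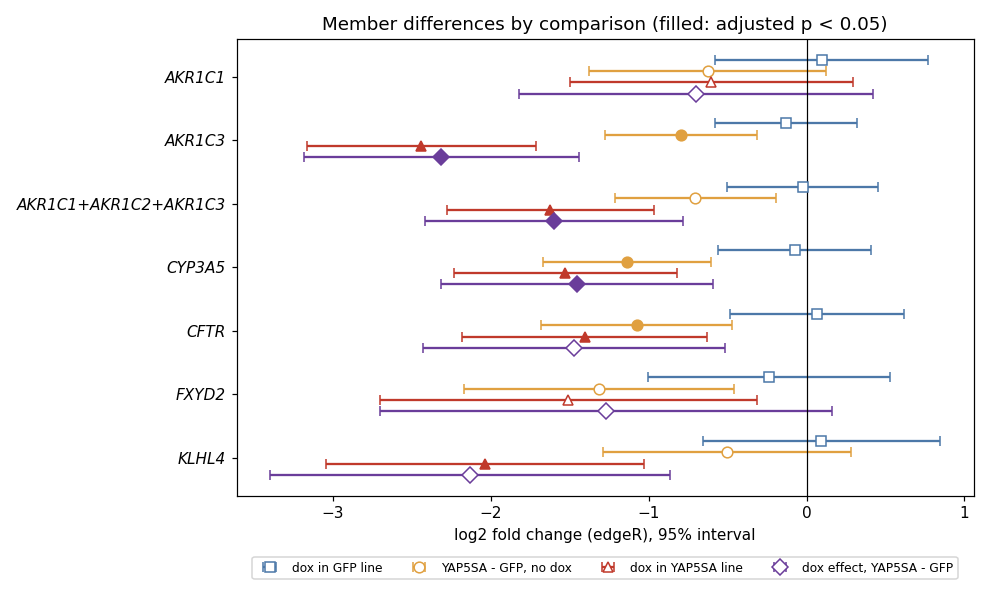
Log2 fold change (x axis) with its 95% interval for each tested gene and the AKR1C sum in the baseline, induction, GFP doxycycline and interaction comparisons. The baseline values run from -1.31 (FXYD2) to -0.50 (KLHL4), the induction values from -2.44 (AKR1C3) to -0.60 (AKR1C1), and the GFP doxycycline values lie around 0.

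The other genes of the same pathways had medians nearer to 0. Among 11 other aldo-keto reductases 6 could be tested, and none was called at baseline (median -0.14). AKR1B1, the abundant aldose reductase, was 611 CPM in GFP and 549 CPM in uninduced YAP5SA cells (log2 fold change -0.16 ± 0.05, edgeR adjusted p = 0.0761) and fell with induction (-0.28 ± 0.05, edgeR adjusted p = 0.00202). AKR1B10, a retinal reductase named after its values were seen, was the other that fell with induction (-1.25 ± 0.38, edgeR adjusted p = 0.0375). Of 24 tested genes of steroid and prostaglandin metabolism, 3 were higher and 2 lower at baseline and 1 rose and 5 fell with induction. Steroid sulfatase, STS, was higher in the YAP5SA line (81.4 against 116 CPM, log2 fold change 0.52 ± 0.06, edgeR adjusted p = 0.000191), and prostacyclin synthase, PTGIS, was lower (54.9 against 30.5 CPM, -0.85 ± 0.17, edgeR adjusted p = 0.0136) and fell further with induction (-0.58 ± 0.18, edgeR adjusted p = 0.0447).

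NRF2 targets and regulators were tested for 25 genes other than the AKR1C enzymes. None was called at baseline (median -0.03), whereas with induction 10 fell and 2 rose (median -0.23). NQO1, a quinone reductase and standard NRF2 target, was -0.31 at baseline (edgeR adjusted p = 0.118) and fell by 0.63 ± 0.12 on the log2 scale with induction (edgeR adjusted p = 0.00254). AKR1B10 and ABCC3, which are on this list too, were -0.74 (edgeR adjusted p = 0.147) and -0.61 (edgeR adjusted p = 0.0824) at baseline. Genes of the list lay on both sides of 0 there. TXNRD1 and GCLC, named after their values were seen, were 0.27 (edgeR adjusted p = 0.136) and 0.17 (edgeR adjusted p = 0.203). GCLC rose with induction (0.25 ± 0.08, edgeR adjusted p = 0.0347).

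Among 22 tested P450 enzymes and their nuclear receptors, 1 was higher and 2 were lower at baseline, and 3 rose and 2 fell with induction. The fatty acid hydroxylase CYP2U1 was higher in the YAP5SA line (31.3 against 43.9 CPM, edgeR adjusted p = 0.00077). AHR, the dioxin receptor, was lower (41.7 against 31.9 CPM, log2 fold change -0.39, edgeR adjusted p = 0.00627), as was the glucocorticoid receptor NR3C1 (-0.18, edgeR adjusted p = 0.0296), which fell further with induction (-0.31 ± 0.05, edgeR adjusted p = 0.000605). The CYP3A regulator NR1I2 had 11 reads in the 12 libraries and was not tested.

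Of 22 tested CFTR partners and chloride channels, 3 were higher and 1 was lower at baseline, and 2 rose and 6 fell with induction. Ezrin, EZR, which links CFTR to actin through NHERF1, was higher in the YAP5SA line (645 against 852 CPM, log2 fold change 0.40, edgeR adjusted p = 0.011) and rose with induction (0.67 ± 0.08, edgeR adjusted p = 0.000169), opposite to CFTR. KCNN4, a calcium-gated potassium channel that supports chloride secretion, was lower at baseline (-0.51, edgeR adjusted p = 0.0278) and fell with induction (-0.60 ± 0.14, edgeR adjusted p = 0.00897). In the ABCC subfamily, to which CFTR belongs as ABCC7, 1 of 9 tested genes was lower at baseline, and 1 rose and 2 fell with induction. The baseline one was ABCC4, an exporter of prostaglandins and cyclic nucleotides (81.8 against 61.3 CPM, -0.42, edgeR adjusted p = 0.0017).

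FXYD proteins and Na,K-ATPase subunits gave 6 tested genes besides FXYD2, with 1 higher and 1 lower at baseline and 2 lower with induction. The beta subunit ATP1B1 was slightly lower at baseline (-0.20, edgeR adjusted p = 0.0399) and fell by 0.68 ± 0.06 on the log2 scale with induction (edgeR adjusted p = 7.57e-06), whereas ATP1B3 was higher at baseline (0.24, edgeR adjusted p = 0.0368). FXYD6, the neighbour of FXYD2 on chromosome 11, was 2.57 CPM in GFP and 1.40 CPM in uninduced YAP5SA cells (-0.88 ± 0.38, edgeR adjusted p = 0.182). Among 11 tested tubule transcription factors 1 was higher and 2 were lower at baseline. PAX8, a factor of the nephron lineage, was lower at baseline (-0.37 ± 0.08, edgeR adjusted p = 0.013) and 0.00 with induction (edgeR adjusted p = 0.978). HNF4A, with 26 reads in the 12 libraries, was not tested.

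Of 29 tested Kelch-like genes and their cullin, 1 was higher and 1 lower at baseline, and 4 rose and 3 fell with induction. KLHL13, a substrate adaptor of mitotic cullin 3 ligases and like KLHL4 on the X chromosome, was lower in the YAP5SA line (48.1 against 32.6 CPM, -0.56, edgeR adjusted p = 0.000984) and fell with induction (-0.83 ± 0.08, edgeR adjusted p = 2.71e-05).

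**Figure D3:**
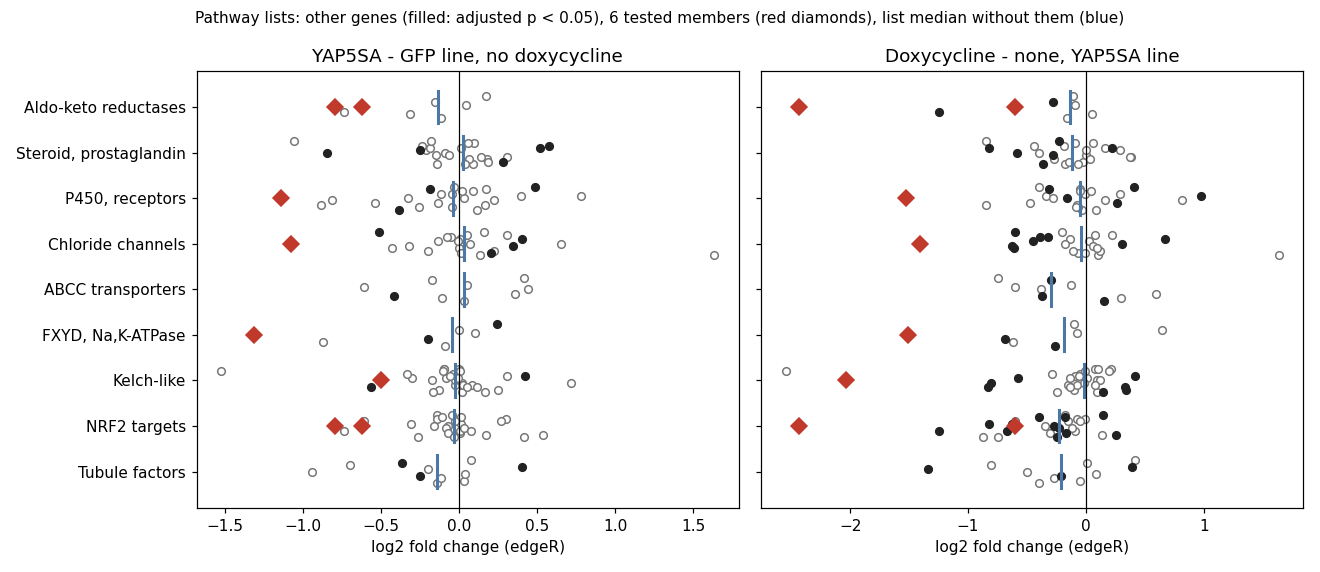
Log2 fold change at baseline and with induction for the other tested genes of each pathway list (circles, filled where the adjusted p was below 0.05), with its median without them as a blue line and the 6 tested genes described here as red diamonds. The NRF2 list has a median of -0.03 at baseline and -0.23 with induction, and the ABCC list 0.03 and -0.30.

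Likeness of level was measured as Pearson r of log2 CPM over the 12 libraries, a description in which differences between the groups and spread within them both count. Nearest to AKR1C3 were RHOB (0.993), DPYSL3 (0.992) and FRMD5 (0.991), and nearest to AKR1C1 were G3BP1 (0.973), PAGE3 (0.971) and ITGA2 (0.963). G3BP1 was called in no comparison, with log2 fold changes of -0.05 at baseline and -0.03 with induction. Nearest to CYP3A5 were GLIS1, OGFRL1 and PER3 (0.990, 0.990 and 0.989), and to CFTR STMN3, ABLIM3 and CDKN1C (0.987, 0.987 and 0.986). FXYD2 was nearest to KBTBD11 (0.986), LRATD1 (0.984) and BMAL1 (0.981), and KLHL4 to RHOB (0.981), CASK (0.977) and DDIT4 (0.976). RHOB was thus named for both AKR1C3 and KLHL4. Among the 15 pairs of the 6 genes, r ran from 0.656 for FXYD2 with KLHL4 to 0.976 for CYP3A5 with FXYD2. With Spearman's rank correlation in place of Pearson's, 0 of the 18 named neighbours were the same.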

How the data were processed

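RNA of 12 cell line samples was sequenced from poly(A) libraries made with 1000 ng of total RNA, per the labels' protocols. The authors deposited 1 table of whole-number read counts per gene. The submitters' processing notes name GRCh38 (hg38) as the build and, as tools, limma, DESeq2, DRAGEN, Subread and featureCounts. Their versions, their roles and whether strand was used in counting were not given in the sources used here, so reads of a gene and its antisense partner cannot be told apart. Size factors of the libraries were nearly equal (1.002 to 1.008), and whether reads were thinned to a common depth is likewise not stated. Of its 62656 genes, 62639 were in the table of names and 24935 had no count. The members and gene lists were chosen with earlier results of these data known.

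The test was the robust quasi-likelihood F test of edgeR 4.0.16 (R 4.3.3). filterByExpr kept 17470 genes, TMM gave the scaling, and 1 model with 4 group means was fitted over the 12 libraries (8 residual degrees of freedom, common biological coefficient of variation 7.48%). The threshold was a Benjamini-Hochberg adjusted p of 0.05 over all tested genes. CPM uses TMM factors. The AKR1C sum replaced its 3 rows before a fit of its own. The script was first tested on simulated data. Exon lengths and coding sequences came from GENCODE 29 and promoters from RefSeq. Besides the 7 genes, at most 4 genes of each list were named, those with the smallest baseline p among genes reaching 2 CPM in a group mean, and for likeness the 3 nearest genes. Some of the genes this rule names are not reported here.

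Alternatives were other scalings and filters, DESeq2 1.42.0, limma-voom (limma 3.58.1), only the groups compared, the replicate number as a block, and leaving out each library. Same-numbered libraries deviated together between the GFP groups (r of 0.229, 0.425 and 0.413 for numbers 1 to 3), so those are treated as paired by the labels' numbers. A blocked fit of the 6 GFP libraries was added after the data were seen. The other comparisons had at least 1 number below 0.1 and are not treated as paired.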

Additional observations from a re-analysis of the deposited data

Results flagged for a closer look

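The effect of doxycycline differed between the lines for 2 of the genes by a test of the difference itself. Of all tested genes, 3.28% were called lower in that test. For AKR1C3 the difference of the log2 effects, YAP5SA line minus GFP line, was -2.31, with -2.44 in the YAP5SA and -0.13 in the GFP line, and all 3 induced libraries were below all 3 uninduced ones. For CYP3A5 it was -1.45, with -1.53 and -0.07. The CYP3A5 call was close to the threshold (edgeR adjusted p = 0.0457). It was lost in 11 of the 12 fits that left out 1 library, and with limma-voom. The groups with doxycycline were also used to pick these genes.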

How the results depend on the processing

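Every fitted value of the 6 genes and of the AKR1C sum kept its direction at baseline, with induction and in the interaction under the alternatives run. The filter mattered near the threshold: with no filter CFTR missed it at baseline (-1.08, edgeR adjusted p = 0.0905) and with induction (-1.40, edgeR adjusted p = 0.0558). The AKR1C sum passed at baseline with no filter (-0.71, edgeR adjusted p = 0.0337), with DESeq2 (-0.71, adjusted p = 0.0496), with only the groups compared (-0.70, edgeR adjusted p = 0.0169) and with the block (-0.70, edgeR adjusted p = 0.0313). FXYD2 passed at baseline with DESeq2 (-1.32, adjusted p = 0.0226), the groups alone (-1.31, edgeR adjusted p = 0.0463) and the block (-1.31, edgeR adjusted p = 0.00806), and with induction under DESeq2 (-1.52, adjusted p = 0.0137) and the block (-1.51, edgeR adjusted p = 0.019). In the interaction KLHL4 passed with a stricter filter (-2.13, edgeR adjusted p = 0.0442), DESeq2 (-2.13, adjusted p = 0.00469) and limma-voom (-2.64, adjusted p = 0.0167), and CFTR with DESeq2 (-1.47, adjusted p = 0.0156) and the block (-1.46, edgeR adjusted p = 0.00318). With limma-voom AKR1C3 missed the threshold at baseline (-0.78, adjusted p = 0.0801) and CYP3A5 in the interaction (-1.48, adjusted p = 0.0673), and with the groups alone KLHL4 missed it with induction (-2.04, edgeR adjusted p = 0.0564). The cause was not tested. DESeq2 called 4 of the 6 genes in the interaction, against 2 by edgeR, which called 3.28% of all tested genes lower there. The share of all genes called by DESeq2 is not given here, so these counts cannot be compared as a result about the 6.

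With the replicate number as a block, 2994 genes were called at baseline (1512 without it) and 2418 in the interaction (1202 without it). Of the 6 genes, 4, 5 and 3 were lower at baseline, with induction and in the interaction. Calls over all genes rose as well at baseline and in the interaction, and are not given for induction. These counts are therefore no result about the 6 genes alone. The block changed no call of the 6 genes or the AKR1C sum other than those given above. Same-numbered libraries correlated at -0.290, 0.230 and 0.282 between the lines without doxycycline and at -0.123, 0.351 and 0.326 between the YAP5SA groups. Whether those libraries share more than a number is therefore not settled. For YAP1, replicate 1 was the lowest in GFP without doxycycline, GFP with it and uninduced YAP5SA (173, 177 and 221 CPM). In induced YAP5SA replicate 1 was the highest (1757 CPM). In the GFP line 3 genes were called with no filter, 1 with DESeq2, 1 with the block and 20 with the block and only the 6 GFP libraries, none of them among the 7.

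Leaving out 1 library at a time (12 fits) gave 607 to 1694 genes called at baseline and 750 to 1387 in the interaction, 0 to 4 of the 6 genes lower at baseline and 1 to 3 in the interaction. At baseline AKR1C3 ran from -0.85 to -0.75, CYP3A5 from -1.25 to -1.05, CFTR from -1.27 to -0.82, FXYD2 from -1.64 to -1.06 and the AKR1C sum from -0.74 to -0.66. With induction AKR1C1 ran from -1.43 to -0.27, CFTR from -1.62 to -1.23 and KLHL4 from -3.26 to -1.57. In the interaction AKR1C3 ran from -2.71 to -1.81, CYP3A5 from -1.67 to -1.15, CFTR from -1.72 to -1.24, KLHL4 from -3.36 to -1.66 and the AKR1C sum from -2.14 to -1.19. The interaction was not run with only the groups compared, since it needs all 12 libraries. Low counts limit these genes: AKR1C1 had 3 to 18 and AKR1C2 1 to 6 reads per library.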

Other observations

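Replicate 3 of the GFP line was the lowest of both GFP groups for CYP3A5 (3.16 and 2.38 CPM), CFTR (3.16 and 3.45 CPM) and FXYD2 (1.74 and 1.39 CPM), but not for AKR1C3 (2.33 and 2.10 CPM) or KLHL4 (4.43 and 5.39 CPM). AKR1C3 had 33 reads in each of the 3 uninduced YAP5SA libraries, while its induced libraries had 9, 1 and 8 reads. Induced replicate 3, the induced library with the least YAP1 (970 CPM), held the most AKR1C1 (12 reads against 4 and 3) and CFTR (25 against 20 and 15), but not the most KLHL4 (13 against 46 and 5), AKR1C3 (8 against 9 and 1) or CYP3A5 (18 against 8 and 19).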
